A study of Mus musculus with 5 samples.

Results

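The chitinase and chitinase-like genes described here are Chil3 (also called Ym1 or Chi3l3), Chia1 (acidic mammalian chitinase, AMCase) and Chil1 (BRP-39 or Chi3l1). They were taken as every probe set (the oligonucleotides that together measure a transcript) for which the platform annotation gives exactly 1 gene symbol and that symbol, or an older name of it, is one of these genes. Each of the 3 genes had 1 such probe set, so they are 3 of the 8251 genes named in this way on the arrays and 3 of 12422 probe sets. RNA labelled as murine lung was hybridised to 5 Affymetrix mouse arrays, 2 of A/J mice that received saline by the intratracheal route and 3 of A/J mice that received IL-13, a T helper 2 cytokine, by that route. Both groups are A/J, an inbred strain, and differ in the agent given. The titles add the numbers 6 and 48 to the saline arrays and 6, 18 and 48 to the IL-13 arrays, with no unit, and arrays are named here by treatment and that number. The labels do not say whether arrays stand for separate animals or pools, and a p-value therefore measures only the spread between these arrays.

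Mammalian chitinases belong to glycoside hydrolase family 18. Chia1 is an enzyme that cleaves chitin, the polymer of fungal walls and of the skeleton of insects and mites, and is made in the mouse in stomach, salivary gland and airway. Chil3 and Chil1 share the fold of the family but lack chitinase activity: Chil3 is a lectin secreted by macrophages and used as a marker of their alternative activation by IL-4 and IL-13, and Chil1 is a secreted glycoprotein of macrophages, neutrophils, epithelial cells and cartilage cells. All 3 have been studied in allergic airway inflammation, where signals of IL-13 reach the nucleus through the receptor chain Il4ra and the transcription factor Stat6.

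The arrays differed in more than treatment. The median intensity lay between 324.4 and 358.4, and the club cell secretory gene Scgb1a1 read from 22020 to 31020, so airway epithelium was represented on all 5 arrays. The surfactant gene Sftpc, which marks alveolar type II cells, was at 2615 and 194.3 on the saline arrays 6 and 48, against 257.2, 17180 and 300.5 on the IL-13 arrays 6, 18 and 48, so the alveolar marker was high on IL-13 18 and low on saline 48, IL-13 6 and IL-13 48. The 12 salivary gland markers on the arrays summed to 120700 on saline 6 and to between 1630 and 1885 on each of the other 4 arrays. In such bulk RNA, fewer cells of a type and less RNA per cell cannot be told apart. The title of IL-13 6 ends in s3 and those of the other arrays in s2, a difference whose meaning the labels do not give.

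Chil3 was higher on every IL-13 array than on either saline array. Its probe set (92694_at) was at 387.9 and 92 on the saline arrays 6 and 48, against 2566, 7595 and 3182 on the IL-13 arrays 6, 18 and 48. The lowest IL-13 array was 6.62 times the higher saline array, and the highest of the 5 arrays was 82.6 times the lowest. The mean log2 intensity was 7.56 with saline (n = 2) and 11.95 with IL-13 (n = 3), a log2 difference of 4.39 (SE 0.69, 95% interval 2.72 to 6.05). Among the 7811 probe sets bright enough to be tested, this was the difference ranked 2 by size in the upward direction. It did not pass the limma test after Benjamini-Hochberg adjustment over all of them (unadjusted p = 0.000539, adjusted p = 0.187). None of the 3 family members passed, where 0.0512% of the tested probe sets did. At an unadjusted p under 0.05 there was 1 of the 3, Chil3, beside 9.26% of tested probe sets. An arrangement with the lowest IL-13 value above the highest saline value was found for 1 of the 3 members, Chil3, and for 14.8% of the tested probe sets.

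Chil3 and Chia1 are neighbouring genes on chromosome 3, in a row of family genes with Chil5, Chil4 and Chil6, and Chil1 lies beside Chit1 on chromosome 1. The annotation used here names no probe set for Chil4, Chil5, Chil6 or Chit1. Chil4 (Ym2) is a near copy of Chil3, so the Chil3 probe set may also take up Chil4 transcript, and its readings are of Chil3 with that uncertainty. The promoter sequences of the reference strain C57BL/6J (RefSeq, GRCm38.p6), which need not be those of A/J, are shown for Chil3, the gene whose treatments separated, for its near copy Chil4 and for its neighbour Chia1. Each is the 250 bases before the annotated start, 5′ to 3′ on the gene's strand, with a match to TTCNNNGAA, the pattern bound by STAT factors, in capitals. Chil3 is at chr3:106167565-106167814 (minus strand), Chil4 at chr3:106219480-106219729 (minus strand) and Chia1 at chr3:106113132-106113381 (plus strand).
Chil3: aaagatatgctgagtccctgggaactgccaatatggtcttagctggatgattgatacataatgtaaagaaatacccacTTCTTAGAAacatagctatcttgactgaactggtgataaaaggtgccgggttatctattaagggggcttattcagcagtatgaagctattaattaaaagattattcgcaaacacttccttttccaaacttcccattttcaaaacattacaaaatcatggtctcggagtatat
Chil4: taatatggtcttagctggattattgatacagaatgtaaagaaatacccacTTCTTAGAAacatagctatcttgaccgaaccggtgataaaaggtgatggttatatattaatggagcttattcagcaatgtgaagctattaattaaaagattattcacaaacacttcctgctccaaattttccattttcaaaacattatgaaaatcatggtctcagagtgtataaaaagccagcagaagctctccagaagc
Chia1: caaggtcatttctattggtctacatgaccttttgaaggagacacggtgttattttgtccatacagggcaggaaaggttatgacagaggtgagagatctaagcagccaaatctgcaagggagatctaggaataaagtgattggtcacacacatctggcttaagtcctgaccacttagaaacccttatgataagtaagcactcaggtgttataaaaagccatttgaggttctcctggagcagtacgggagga

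The letters TTCTTAGAA stand at position -172 of Chil3 and -200 of Chil4, counted back from each annotated start, and the windows of Chia1 and Chil1 hold no TTCNNNGAA. Windows of 300 bases (250 before to 50 after the start) were searched on both strands, and 8.30% of 32851 such windows hold this pattern. The wider pattern TTCNNNNGAA, preferred by STAT6, was in none of the 4 windows and in 6.95% of all. AGGAAG, a core bound by ETS factors, was in the windows of Chil3, Chil4 and Chil1 and in 35.4% of all. TATAAA was in the windows of Chil3 (at -3), Chil4 (at -31) and Chia1 (at -43) and in 13.6% of all. The annotated starts of Chil3 and Chil4 are thus not at the same place relative to TATAAA. TTGCNNAA, part of the pattern of C/EBP factors, was in the window of Chil4 alone of these genes and in 10.8% of all. Aligned to each other, the windows of Chil3 and Chil4 are identical at 251 of 271 aligned bases (92.6%). A match is a string of letters and was not tested for binding.

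Chia1 did not separate the treatments. Its probe set (160509_at) was at 20430 and 185.6 on the saline arrays 6 and 48, against 305.4, 2619 and 276.3 on the IL-13 arrays 6, 18 and 48. The highest and the lowest value both came from saline arrays, 110-fold apart, which is the widest range over the 5 arrays of any tested probe set. Probe sets bright on a single array were not tested. Among those, the salivary gland gene Smr3a read 22980 on saline 6 and 12.19 on saline 48. The mean log2 intensity was 10.93 with saline and 9.24 with IL-13, a log2 difference of -1.69 (SE 1.96, 95% interval -6.41 to 3.04, limma adjusted p = 0.828). The interval spans both directions. Without saline 6 the difference was 1.70, and without saline 48 it was -5.08, so the direction of the treatment difference followed the choice of saline array.

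Chil1 was high on a single array. Its probe set (99952_at) was at 318.1 and 122.6 on the saline arrays 6 and 48, against 351.1, 3059 and 79.28 on the IL-13 arrays 6, 18 and 48. The IL-13 arrays hold both the highest and the lowest of these values, 38.6-fold apart, and the treatments overlap. The mean log2 intensity was 7.63 with saline and 8.78 with IL-13, a log2 difference of 1.16 (SE 1.40, 95% interval -2.21 to 4.52, limma adjusted p = 0.835). Without IL-13 18 the difference was -0.24. No member read below 55.3, the level used as a floor, on any array.

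**Figure D1:**
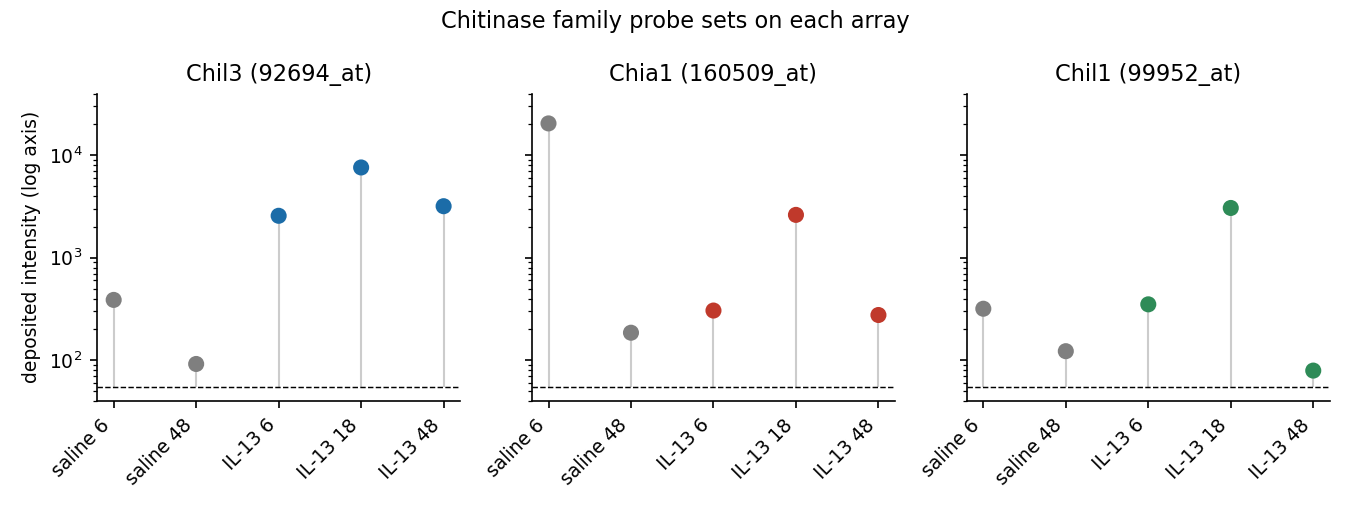
Deposited intensity (log axis) of the 1 probe set of Chil3, Chia1 and Chil1 on each of the 5 arrays; grey points are saline arrays, coloured points IL-13 arrays, and the dashed line is the floor of 55.3. The 3 IL-13 points of Chil3 (2566 to 7595) lie above both saline points, Chia1 is highest on saline 6 (20430), and Chil1 is highest on IL-13 18 (3059).

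**Figure D2:**
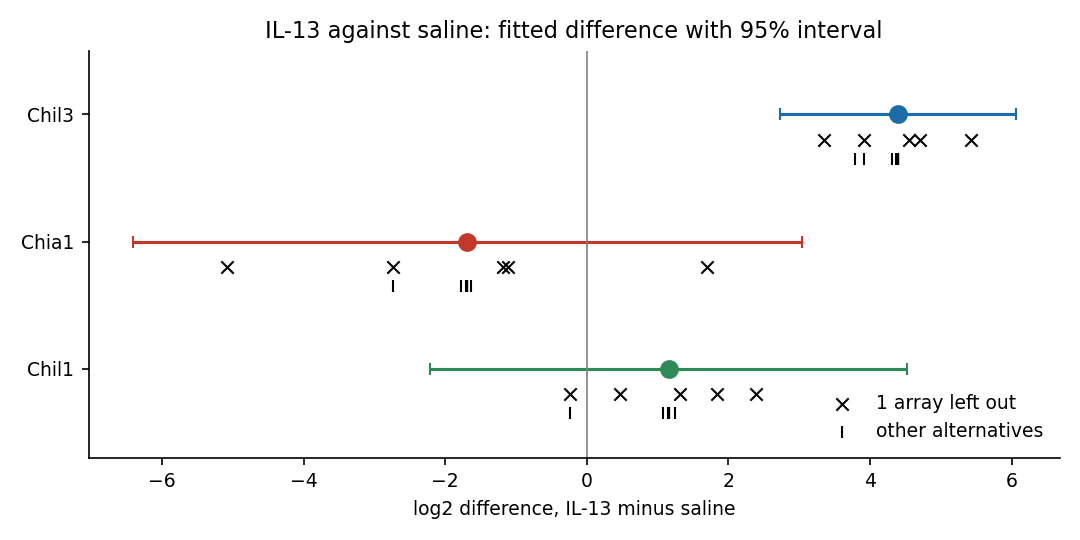
Log2 difference of IL-13 minus saline for each member, with its 95% interval from the limma fit over 2 saline and 3 IL-13 arrays (large point and bar), the values with 1 array left out (crosses) and the values under other processing or a block (ticks). The values of Chil3 stay between 3.35 and 5.43, while those of Chia1 (-5.08 to 1.70) and Chil1 (-0.24 to 2.39) fall on both sides of 0.

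The arrays that share a title number allow 1 array to be set against 1, with no replicate check. In the pair at 6, Chil3 was 6.62-fold higher on IL-13 6 than on saline 6, Chia1 was 66.9-fold lower and Chil1 was 1.10-fold higher. A probe set was counted here when it was at least 2-fold apart and its higher value exceeded the median of all values, 343. By that rule 1 of the 3 members was higher (Chil3) beside 3.45% of 6522 probe sets, and 1 was lower (Chia1) beside 3.77%. In the pair at 48, Chil3 was 34.6-fold higher on IL-13 48 than on saline 48, Chia1 was 1.49-fold higher and Chil1 was 1.55-fold lower. Chil3 met the rule in the upward direction in that pair, beside 1.12% of 6532 probe sets. It was the only member that could, because Chia1 and Chil1 stayed below 343 on both arrays. The larger fold of Chil3 at 48 goes with the lower saline array: IL-13 6 and IL-13 48 themselves were 1.24-fold apart, and 37.8% of tested probe sets were at least that far apart between those arrays.

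The saline arrays differed for all 3 genes. Saline 6 was 4.22-fold above saline 48 for Chil3, 110-fold for Chia1 and 2.59-fold for Chil1. The rule counted 2 of the 3 (Chil3 and Chia1) beside 2.82% of 6497 probe sets, because Chil1 stayed below 343 on both arrays. At the distance of Chil3, 0.999% of tested probe sets were as far apart between these arrays in either direction. For Chia1 it was 0.0128%, that is Chia1 alone among the tested probe sets. These leave out probe sets bright on a single array, such as that of Smr3a.

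IL-13 18 was the highest IL-13 array for all 3 genes. It lay above the next IL-13 array by 2.39-fold for Chil3, 8.58-fold for Chia1 and 8.71-fold for Chil1. At least 2-fold above both other IL-13 arrays were 3 of the 3 members, beside 0.697% of 6740 probe sets. With a threshold of 3-fold it was 2 of the 3 (Chia1 and Chil1) beside 0.297%. Against the saline arrays, IL-13 18 was 19.6-fold above the higher one for Chil3 and 9.62-fold for Chil1, whereas for Chia1 it was saline 6 that lay 7.80-fold above IL-13 18. So 2 of the 3 members lay at least 2-fold above both saline arrays on IL-13 18, beside 0.961% of 6767 probe sets. Both patterns together, IL-13 18 at least 2-fold above the other IL-13 arrays and saline 6 at least 2-fold above saline 48, with no minimum level, were found for 17 of the 7811 tested probe sets, and the 3 members are among them.

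**Figure D3:**
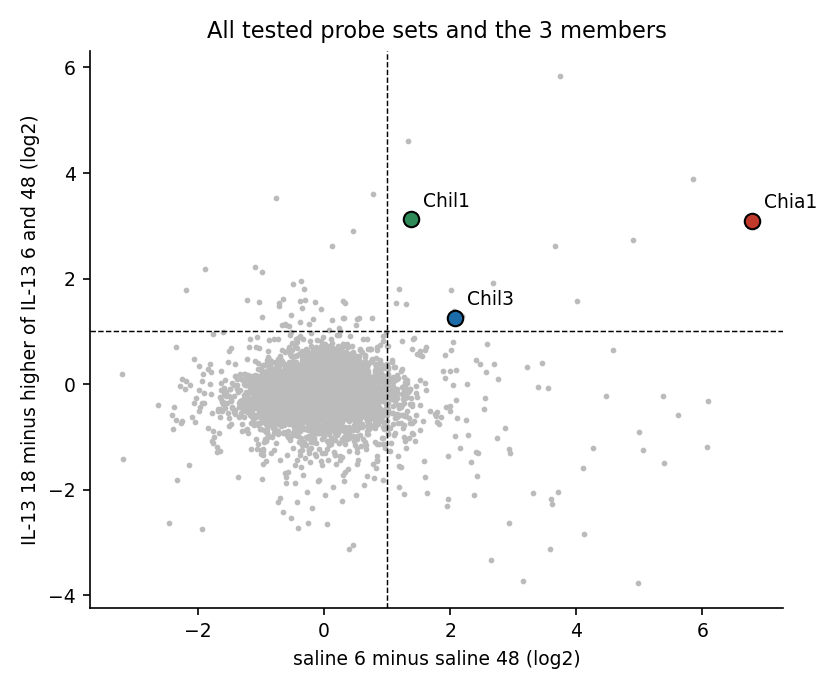
Each grey point is 1 of 7811 tested probe sets. The horizontal axis is the log2 difference of saline 6 minus saline 48, the vertical axis that of IL-13 18 minus the higher of IL-13 6 and IL-13 48, and the dashed lines mark a 2-fold difference. Chil3, Chia1 and Chil1 (coloured) lie in the upper right corner with 14 other probe sets. That corner has no minimum level and was chosen after the values of the members were seen.

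The order of the arrays was different for each gene. For Chil3 it ran, from the highest, IL-13 18, IL-13 48, IL-13 6, saline 6 and saline 48. For Chia1 the order was saline 6, IL-13 18, IL-13 6, IL-13 48 and saline 48. For Chil1 it was IL-13 18, IL-13 6, saline 6, saline 48 and IL-13 48. With 1 array for each combination there is no spread to compare neighbours with. The closest neighbours were IL-13 6 and IL-13 48 for Chia1 (1.11-fold apart, a distance that 67.2% of tested probe sets reach) and IL-13 6 and saline 6 for Chil1 (1.10-fold, 73.4%).

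The genes nearest in profile to each member were found by the root mean square difference (RMSD) of log2 values over the 5 arrays, each gene centred on its own mean, among 5982 other tested genes. The members themselves vary around their means by a root mean square of 2.31 (Chil3), 2.57 (Chia1) and 1.82 (Chil1). These distances are a description of 5 arrays and are not a test.

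The gene nearest to Chil3 was Clca1, a secreted protein of goblet cells, at an RMSD of 0.59. Its r_at probe set (162287_r_at) was at 3118 and 284.7 on the saline arrays 6 and 48, against 21500, 29080 and 22010 on the IL-13 arrays 6, 18 and 48. It shares with Chil3 the gap between the treatments and the lower value on saline 48. A second Clca1 probe set, 100623_at, was dim (24.57 to 156.8), with IL-13 48 its lowest array. The next genes were much further away: the collagen receptor gene Ddr2 (1.43), the mucus protein gene Fcgbp (1.496), Tex2 (1.56) and the small proline-rich gene Sprr2b (1.57).

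Among tested genes, those nearest to Chia1 were mostly heart muscle genes. Genes bright on saline 6 alone, such as the salivary gland genes Smr3a and Car6, were not tested and so could not be ranked. Myl7, the atrial myosin light chain, was at an RMSD of 0.56 and was at 7548 and 129.9 on the saline arrays 6 and 48, against 224.8, 3323 and 192.3 on the IL-13 arrays 6, 18 and 48. The cardiac myosin heavy chain gene Myh6 followed at 0.70, then Myl4 (1.08), cardiac troponin I, Tnni3 (1.13), and Tbc1d10a (1.19). Like Chia1, Myl7 and Myh6 were highest on saline 6 and next highest on IL-13 18. The other probe sets of Myl4 (100828_at, 332 to 1254) and Tbc1d10a (96131_at, 515.6 to 729.1) had a smaller range. The part of heart muscle tissue in the Chia1 readings was not tested.

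Most salivary gland markers were bright on saline 6 with Chia1 but not on IL-13 18. Of 21 listed markers 12 were on the arrays, and 10 of the 12 were highest on saline 6. The others, Smr2 (58.01 to 97.09) and Mucl2 (below 55.3 on every array), were dim throughout. None of the 4 tested passed the limma test, also at an unadjusted p under 0.05. The defining marker Smr3a read 22980 on saline 6 and 28.65 on IL-13 18, the secreted carbonic anhydrase Car6 14200 and 46.1, and amylase, Amy1, 25160 and 357.5. On IL-13 18, where Chia1 was 8.58-fold above the next IL-13 array, the salivary markers summed to 1751, within the range of the other arrays without saline 6. Their part in the 20430 of saline 6 was not tested. Of 14 stomach markers 7 were on the arrays, and they summed to 12380 and 14870 with saline and to between 14500 and 19300 with IL-13, mostly from Tff2, which is also a mucus gene of the airway. None of the 3 tested passed, also at an unadjusted p under 0.05. Of the proton pump of acid-secreting stomach cells, subunit Atp4a read 321.2 to 442.2 and subunit Atp4b was below 55.3 on every array, and the protease gene Ctse read 943.4 to 1407.

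Of the 5 genes nearest to Chil1, the first and second are markers of alveolar type II cells. Slc34a2, their phosphate transporter, was at an RMSD of 0.42 and was at 251.8 and 147.6 on the saline arrays 6 and 48, against 224.3, 2730 and 112.9 on the IL-13 arrays 6, 18 and 48. The surfactant gene Sftpb followed at 0.65, with 2114 on IL-13 18 and 67.59 to 231.8 elsewhere. As with Chil1, IL-13 18 was the single high array of both. The macrophage elastase gene Mmp12 came next at 0.93 (95339_r_at), with 1669 on IL-13 18 and 96.75 to 284 elsewhere, and its second probe set, 95338_s_at, was also highest there (431.1). Slc39a8 (1.20) and the endothelial phosphatase gene Ptprb (1.22) followed. Over the whole list of 14 alveolar type II markers, 8 were on the arrays and 7 were tested, with sums of 33310 and 23450 on the saline arrays 6 and 48, against 32700, 47410 and 24730 on the IL-13 arrays 6, 18 and 48. On every array but IL-13 18 most of the sum came from Scd1, a lipid enzyme gene that other cells also express (16360 to 26190), and on IL-13 18 it read 17720 beside 17180 for Sftpc. None of the 7 passed the limma test (1 at an unadjusted p under 0.05). On IL-13 18, 3 of the 7 (Sftpc, Sftpb and Slc34a2) were at least 2-fold above both other IL-13 arrays. By the 2-fold rule, which also asks for a minimum level, 0.697% of 6740 probe sets were. The rest of the list did not follow. Lpcat1 and Muc1 were highest on IL-13 18 by less than 2-fold. Scd1 was not highest there, nor was Napsa (2004, against 2087 and 2103 on IL-13 6 and 48). The untested Sftpd read 174.8, against 217.1 and 183.3. The part of alveolar type II cells in the Chil1 reading was not tested.

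**Figure D4:**
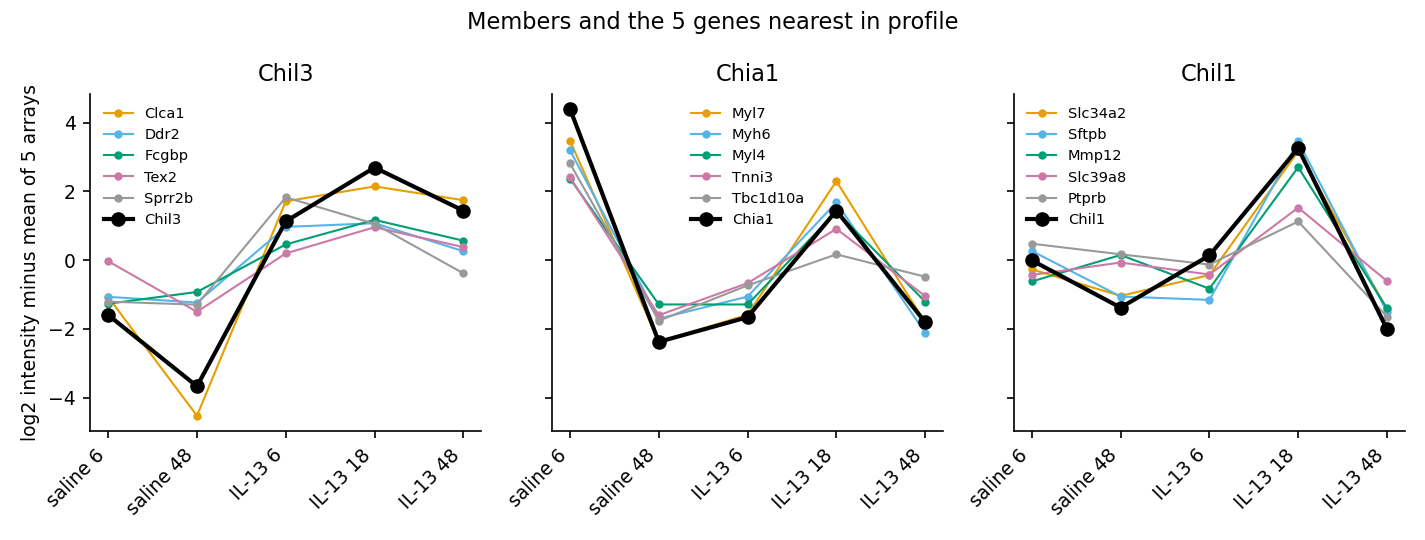
Log2 intensity minus each gene's own mean over the 5 arrays, for Chil3, Chia1 and Chil1 (black) and the 5 genes nearest to each in profile (coloured). Clca1 follows Chil3 with low saline points, Myl7 and Myh6 follow Chia1 with high points on saline 6 and IL-13 18, and Slc34a2 and Sftpb follow Chil1 with a single high point on IL-13 18.

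Macrophages are a known source of Chil3 and Chil1. Of 20 macrophage markers, 16 were on the arrays and summed to 33450 and 31700 with saline and to 33580, 30100 and 29940 with IL-13, most of it from the lysozyme gene Lyz2 and the protease gene Ctsd. Of the 11 tested, none passed the limma test (1 at an unadjusted p under 0.05, beside 9.26% of all tested probe sets). All IL-13 arrays were above the saline arrays for 1 (Ctsk, beside 14.8%) and below for 1 (Mpeg1, -1.19, SE 0.32, beside 11%). The median log2 difference was 0.06, beside 0.04 for all tested probe sets. Cd68, a lysosomal protein of macrophages, differed by -0.23 (SE 0.21). The macrophage growth factor receptor Csf1r differed by -0.22 (SE 0.20), and by 0.76 on its second probe set, 161832_r_at. Adgre1 (F4/80) was too dim to be tested, from 43.12 on saline 6 to 239.7 on IL-13 18, and Marco, a receptor of alveolar macrophages, read 424.8 on saline 6 and 17.23 to 96.27 elsewhere. The part of macrophages in the Chil3 and Chil1 readings was not tested. Of 17 neutrophil markers, 15 were on the arrays and summed to 19600 and 17340 with saline and to 24880, 18420 and 17660 with IL-13, most of it from Ltf, which glands also secrete. None of the 7 tested passed (2 at an unadjusted p under 0.05, beside 9.26% of all tested probe sets). All IL-13 arrays were above both saline arrays for 2 (beside 14.8%). These were the growth factor receptor gene Csf3r (854.6 and 383.3 against 1535, 1039 and 1023, log2 difference 1.04, SE 0.37) and the decoy receptor gene Il1r2 (355.3 and 409.7 against 623.6, 701.4 and 633.3, 0.77, SE 0.17). The granule protein gene S100a8 read 179.3 to 509.4, and the treatments overlapped. The part of neutrophils in the Chil3 and Chil1 readings was not tested. Of 9 eosinophil markers 6 were on the arrays, and they summed to 306.4 and 349.4 with saline and to 462.8, 347.3 and 470.4 with IL-13. The granule genes Prg2 and Epx, and also Il5ra, were below 55.3 on every array. Also too dim to be tested were Prg3 (133 and 75.58 in saline arrays, against 26.52, 32.99 and 74.73 in IL-13 arrays) and Ccr3 (24.2 to 73.88). The 1 marker tested, the transcription factor gene Gata1, was at 130.6 and 162.8 in saline arrays, against 315.4, 226.2 and 288.4 in IL-13 arrays (0.91, SE 0.22, limma adjusted p = 0.339). Their part in the Chil3 reading was not tested.

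Cartilage cells are another source of Chil1. Of 16 cartilage markers listed, 13 were on the arrays. They summed to 5128 and 10010 on the saline arrays 6 and 48, against 6884, 7686 and 8785 on the IL-13 arrays 6, 18 and 48. None of the 9 tested passed, also at an unadjusted p under 0.05. The part of cartilage cells in the Chil1 reading was not tested. Club cell markers (8 on the arrays) summed to 69930 and 68530 in saline arrays, against 83240, 76680 and 72920 in IL-13 arrays. Of these, none of the 7 tested passed (2 at an unadjusted p under 0.05, beside 9.26% of all tested probe sets). Goblet cell markers (13 on the arrays) summed to 32630 and 32280 with saline and to 68160, 82990 and 64440 with IL-13. None of the 10 tested passed (6 at an unadjusted p under 0.05, beside 9.26% of all tested probe sets), and their median log2 difference was 1.01. Of the 10, 5 had all IL-13 arrays above both saline arrays (beside 14.8%). The largest goblet marker reading on each IL-13 array was Clca1 (162287_r_at, 21500 to 29080, against 3118 and 284.7 with saline). The goblet marker Muc5ac was below 55.3 on every array.

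Other genes of family 18 and of chitin handling were not ranked against the 3 members, because the intervals of Chia1 and Chil1 span both directions. Those tested had log2 differences from -0.05 to 0.48. Of 18 listed, 7 were named on the arrays and 6 were tested, with a median log2 difference of 0.10. None of the 6 passed the limma test in either direction (1 at an unadjusted p under 0.05, beside 9.26% of all tested probe sets). Ovgp1, an oviduct glycoprotein of the same family and encoded near Chia1 and Chil3, differed by -0.05 (SE 0.28). The hexosaminidase subunit gene Hexa and the N-acetylglucosamine kinase gene Nagk, which handle the sugar unit of chitin, differed by 0.04 (SE 0.17) and 0.00 (SE 0.17). Galectin-3, Lgals3, was at 1651 and 2075 in saline arrays, against 2626, 2572 and 2364 in IL-13 arrays (0.44, SE 0.18, limma adjusted p = 0.529). Cd44 differed by 0.48 (SE 0.26), and these 2 genes had all IL-13 arrays above both saline arrays, beside 14.8% of tested probe sets. Ptgdr2, a prostaglandin receptor, differed by 0.16 (SE 0.20). Il13ra2, a receptor chain that binds IL-13 and Chil1, was too dim to be tested, with 75.94 on IL-13 6, 56.92 on IL-13 48 and values below 55.3 on the other 3 arrays.

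Among 18 genes of IL-4 and IL-13 receptor signalling, 17 were on the arrays and 11 were tested. None passed the limma test (2 at an unadjusted p under 0.05, beside 9.26% of all tested probe sets). On all IL-13 arrays 1 lay above (Socs3) and 4 lay below (Il4ra, Jak1, Socs1 and Ptpn6) both saline arrays, and the median was -0.16. Over all tested probe sets, 14.8% lay above and 11% below in this way, and none of the 3 family members lay below. The feedback inhibitor Socs1 differed by -0.68 (SE 0.20, limma adjusted p = 0.43), the receptor chain Il4ra by -0.40 (SE 0.18) and Stat6 by -0.08 (SE 0.24). Of 24 genes of alternatively activated macrophages, the state that Chil3 marks, 15 were on the arrays and 14 were tested. None passed, also at an unadjusted p under 0.05 (beside 9.26% of all tested probe sets). On all IL-13 arrays 2 (Alox15 and Cdh1) lay above both saline arrays, close to the 14.8% of all tested probe sets. The median was 0.20. Arg1, arginase, was at 313 and 478.7 in saline arrays, against 1283, 379.7 and 285.7 in IL-13 arrays, so IL-13 6 alone stood above the saline arrays. The mannose receptor gene Mrc1 differed by 0.22 (SE 0.26) and the lipoxygenase gene Alox15 by 1.22 (SE 0.52). The growth factor gene Igf1 differed by 0.05 (SE 0.21), the transferrin receptor gene Tfrc by 0.06 (SE 0.24), fibronectin, Fn1, by 0.02 (SE 0.23) and Klf4 by 0.46 (SE 0.31).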

How the data were processed

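Values are the intensities the authors deposited for 12488 probe sets on 5 arrays, on a linear scale; how background was corrected, and in which software, is not given in the sources used here. All deposited intensities have a 2% trimmed mean of 800.4 to 800.5 on every array. Each array was scaled to the same 2% trimmed mean, computed over all deposited probe sets, and the 66 control probe sets were left out of what follows. A floor of 55.3, the 20th percentile of all values, was applied before log2. The test covered the 7811 probe sets that exceeded 210, the 40th percentile, on 2 or more arrays. IL-13 was compared with saline by lmFit and eBayes of limma 3.58.1 (R 4.3.3), two-sided, with Benjamini-Hochberg adjustment over all tested probe sets and a threshold of 0.05; 3 residual and 3.46 prior degrees of freedom. The fit was tested on simulated data. Symbols came from the platform annotation, updated through gene numbers for 10817 of 10833 probe sets with 1 symbol. For gene lists the brightest probe set stood for a gene, and summed levels add deposited intensities.

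Named were the members, the measured genes of the chitin list, up to 4 bright or defining genes of each other list, and the 5 genes nearest to each member in profile; 161832_r_at, 100623_at, Sftpc, Arg1 and others beside them were named after their values were seen. The members and lists were chosen with earlier results of these data known. The count of probe sets highest on IL-13 18 was also chosen after seeing the data. Alternatives were other scalings, floors, filters, prior settings, title number as a block, each array left out, other folds and the other saline array as control. The number of arrays limits precision. Detection calls were not analysed here.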

Additional observations from a re-analysis of the deposited data

Results flagged for a closer look

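For 2 of the 3 genes, IL-13 and saline differed in opposite directions in the arrays of title number 6 and of title number 48. Opposite directions were found for 45.5% of the 7811 tested probe sets. For Chia1 the log2 difference of IL-13 minus saline was -6.06 at 6 and 0.57 at 48. For Chil1 it was 0.14 at 6, a distance that 73.4% of tested probe sets reach, and -0.63 at 48. Each value sets 1 array against 1, so how far 6 and 48 differ could not be given an error, and that difference was not tested.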

How the results depend on the processing

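The direction of Chil3 held under all 14 alternatives run for it, with log2 differences of 3.35 to 5.43 and limma adjusted p of 0.123 to 0.441, and with 1 array left out it ranged over the same 3.35 to 5.43. Chia1 kept its direction under 13 of 14 alternatives, and was 1.70 without saline 6; with 1 array left out it ranged from -5.08 to 1.70 (adjusted p 0.182 to 0.957). Chil1 kept its direction under 11 of 13 and was -0.24 without IL-13 18, with a range of -0.24 to 2.39 (adjusted p 0.759 to 0.985). It was too dim to be tested with the filter at the 60th percentile. Not all alternatives are separate checks. The values as deposited gave the same differences as the main fit, and the title number block the same as leaving out IL-13 18. With title number as a replicate block (4 arrays, without IL-13 18), a pairing by a number whose meaning is not given, the differences were 3.92 for Chil3 (adjusted p 0.161), -2.74 for Chia1 (adjusted p 0.755) and -0.24 for Chil1 (adjusted p 0.878), and 0 probe sets passed in each direction.

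Of all tested probe sets 1 passed higher and 3 lower. The counts were 0 and 3 with quantile normalization, 0 and 1 with the filter at the 60th percentile, and 0 and 0 without the filter, with either other floor (10th and 40th percentile) or with trend and robust settings. With 1 array left out they ranged from 0 to 3 higher and from 0 to 7 lower, the highest without saline 48 (3 and 7). No member passed under any of these. With folds of 1.5 and 3 in place of 2, the counts of probe sets were 780 and 62 for IL-13 higher at 6 (225), 608 and 87 for lower at 6 (246), 345 and 21 for higher at 48 (73), and 565 and 73 for saline 6 over saline 48 (183). With the other saline array as control they were 123, 145 and 268 for the first 3 of these. Chia1 then turned from -6.06 to 0.72 at 6 and from 0.57 to -6.21 at 48, and Chil3 moved from 2.73 to 4.80 and from 5.11 to 3.04. The cause of these changes was not tested. Signal over background limits values near 55.3, where Chil1 on IL-13 48 (79.28) and Chil3 on saline 48 (92) lie.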

Other observations

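Genes around the family members on the chromosome were read on the same arrays. Within 5 protein-coding genes on either side of Chil3, Chia1 and Chil1 there were 20 other genes, of which 10 were on the arrays and 9 were tested. None of the 9 passed the limma test (1 at an unadjusted p under 0.05, beside 9.26% of all tested probe sets). None was at least 2-fold higher on IL-13 18 than on both other IL-13 arrays, and none was at least 2-fold higher on saline 6 than on saline 48. By the 2-fold rule, which also asks for a minimum level, the shares over all probe sets were 0.697% of 6740 and 2.82% of 6497. With shares that small, an absence among 9 genes does not set the neighbours apart from other probe sets. Mybph, a myosin-binding protein gene next to Chil1, was at 1218 and 932 in saline arrays, against 1934, 1190 and 1049 in IL-13 arrays. Wdr77, near Chia1, was at 794.4 and 1747 in saline arrays, against 1000, 828.1 and 1343 in IL-13 arrays. Tmem183a, near Chil1, was 1 of 2 neighbours with all IL-13 arrays above both saline arrays, beside 14.8% of tested probe sets. It differed by 0.75 (SE 0.24, limma adjusted p = 0.469). Ppfia4, near Chil1, was too dim to be tested.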
